A study of Homo sapiens with 12 samples.

Results

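NF-κB is a family of transcription factors made of pairs of Rel proteins. In resting cells the pairs are held in the cytoplasm by inhibitors of the IκB family. Signals from cytokine receptors or damaged DNA activate the IKK kinases, the inhibitor is degraded, and the freed pair enters the nucleus and switches on target genes, among them its own inhibitors. CXCL1, CXCL2 and CXCL3 are secreted chemokines that attract neutrophils through the receptor CXCR2. In many senescent cell types, NF-κB drives secretion of such inflammatory factors. The 10 genes described here are these 3 chemokines, the subunit genes NFKB1, NFKB2, RELA and RELB, the inhibitor NFKBIA (IκBα), the nuclear IκB protein BCL3 and TNFAIP3 (A20), an enzyme that shuts the pathway off. They are listed by symbol, and the list was drawn up with earlier results of these data known. All 10 were among the 35337 genes of the expression table, and all 10 passed the filter on low values (a mean of at least 5), as did 13847 genes in all.

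The cells were of EndoC-βH3, a human beta-like line derived from fetal pancreas, whose genotype label was WT in all samples. The line, including its non-senescent form, carries genes for hTERT and the SV40 large T antigen, and CreER can excise them when 4-hydroxytamoxifen (4-OHT) is given. The 6 senescent samples had 4-OHT for 3 weeks, and the 6 non-senescent samples were the control. Batch A held 2 libraries per group and batch B held 4 per group. RNA was sequenced by CEL-seq2, which reads the 3′ end of transcripts, and each value is a normalised read count, which is the read number divided by 1 size factor per library. All samples came from 1 line, and the effects of 4-OHT, of transgene loss and of senescence cannot be told apart. The labels do not say whether libraries came from separate cultures, so p-values measure the spread between these samples, which may be technical.

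Libraries held 8873569 to 17106776 reads in batch A and 4672924 to 7063264 in batch B, and 1 read was worth 0.449 to 0.795 normalised read counts in A and 1.05 to 1.51 in B. The proliferation gene MKI67 was lower in the senescent samples (log2 fold change -2.83) and CDKN1A, the cell-cycle inhibitor p21, was higher (3.92). TERT had a log2 fold change of 0.28 (adjusted p 0.107), but a 3′ read of this gene need not report the introduced copy. As to the labelled beta-like cell type, 16 of 16 beta-cell markers passed the filter, with 6 called higher in senescent cells and 2 lower. INS, the insulin gene, averaged 19853 normalised read counts in the non-senescent group and 99547 in the senescent group. Hormone genes of other islet cells were present as well, with means of 206130 and 128680 for SST (somatostatin, of delta cells) and 4166 and 2088 for GCG (glucagon, of alpha cells). Of the other islet hormone-cell markers, 5 of 7 passed the filter and 3 were called lower, and of the acinar and duct markers 2 of 12 passed, 1 called higher and 1 lower. A call is a Benjamini-Hochberg adjusted p under 0.1 in limma over all tested genes, with a fold change over 1.5.

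κB sites are the DNA elements that NF-κB pairs bind. Promoters are printed for the 3 chemokines, which fell together in batch B, and for NFKB1, NFKBIA and BCL3, which include a subunit that fell, an inhibitor and the single member that rose. Each sequence is the 250 bases before a RefSeq start site (GRCh38.p14), on the strand of the gene. Capitals mark matches to the κB consensus, searched on both strands. The consensus is 10 bases, GGG followed by a purine, any pair of bases, a pair of pyrimidines and CC, and matches on the opposite strands may overlap.
CXCL1, chr4:73869143-73869392, plus strand: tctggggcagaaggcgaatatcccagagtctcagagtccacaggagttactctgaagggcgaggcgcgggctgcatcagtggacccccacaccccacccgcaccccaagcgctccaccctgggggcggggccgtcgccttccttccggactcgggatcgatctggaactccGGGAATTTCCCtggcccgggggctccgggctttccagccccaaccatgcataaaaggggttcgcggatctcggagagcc
CXCL2, chr4:74099196-74099445, minus strand: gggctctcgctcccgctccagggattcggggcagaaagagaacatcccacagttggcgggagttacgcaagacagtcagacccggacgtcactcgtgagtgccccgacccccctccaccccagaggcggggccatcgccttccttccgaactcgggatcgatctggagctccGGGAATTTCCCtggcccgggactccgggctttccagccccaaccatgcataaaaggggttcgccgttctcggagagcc
CXCL3, chr4:74038690-74038939, minus strand: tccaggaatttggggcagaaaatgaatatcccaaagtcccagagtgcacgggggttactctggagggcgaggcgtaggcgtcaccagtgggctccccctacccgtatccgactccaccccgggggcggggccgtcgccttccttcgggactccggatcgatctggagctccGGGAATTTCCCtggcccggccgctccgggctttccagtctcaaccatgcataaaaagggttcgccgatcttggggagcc
NFKB1, chr4:102501109-102501358, plus strand: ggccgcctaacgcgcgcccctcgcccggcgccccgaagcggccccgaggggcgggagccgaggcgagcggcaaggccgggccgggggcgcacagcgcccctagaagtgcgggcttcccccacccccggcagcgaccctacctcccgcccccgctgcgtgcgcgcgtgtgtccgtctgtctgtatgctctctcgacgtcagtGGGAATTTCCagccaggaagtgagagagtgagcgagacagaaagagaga
NFKBIA, chr14:35404750-35404999, minus strand: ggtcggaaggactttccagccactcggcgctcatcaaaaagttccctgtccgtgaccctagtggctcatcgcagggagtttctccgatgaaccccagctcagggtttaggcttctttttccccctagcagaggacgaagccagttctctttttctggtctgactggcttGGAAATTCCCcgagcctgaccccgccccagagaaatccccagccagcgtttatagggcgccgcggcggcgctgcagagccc
BCL3, chr19:44748458-44748707, plus strand: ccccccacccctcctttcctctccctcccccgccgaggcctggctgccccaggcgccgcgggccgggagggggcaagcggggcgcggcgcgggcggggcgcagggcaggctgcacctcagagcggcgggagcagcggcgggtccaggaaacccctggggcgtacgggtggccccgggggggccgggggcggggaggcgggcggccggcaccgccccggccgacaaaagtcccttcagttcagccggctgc

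The chemokine promoters each held a pair of overlapping matches, 1 on each strand, between 79 and 68 bases before the start site. The match lay in a run of 23 bases that was identical in all 3 promoters, at bases -83 to -61 of CXCL1 and CXCL3 and -82 to -60 of CXCL2. Over the 250 bases CXCL1 and CXCL3 were 81.4% identical, CXCL2 and CXCL3 73.3%, and CXCL1 and CXCL2 67.9%. NFKB1 had 1 match at bases -49 to -40 of the first of its 2 listed start sites, and NFKBIA had 1 at bases -81 to -72 on the opposite strand. No match was in the windows of BCL3 and RELA. NFKB2 had 4 and 3 matches at start sites 2 and 3 of its 3 listed ones, and TNFAIP3 had 2. NFKB2, TNFAIP3 and NFKBIA had matches but were not called in the comparison of the groups. RefSeq entries were found for 9 of the 10 genes, RELB being without one, and 7 had a match in at least 1 entry. Of all 35116 promoters searched in the same way, 9.96% held a match. That share is per entry, whereas the count of 7 is per gene over 13 entries, so the 2 are not on the same scale. A match is a description of letters only, and these data hold no measurement of binding.

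Senescent EndoC-βH3 cells had less mRNA for CXCL1, CXCL3, NFKB1 and RELB, and more for BCL3. Of the 10 genes 4 were called lower, against 11.8% of all tested genes, and 1 was called higher, against 11.6%. Log2 fold changes were below 0 for 9 of the 10 genes (48.9% of all tested genes), with a median of -0.71 beside 0.012 over all tested genes. NFKBIA and RELA passed the adjusted p but not the fold limit, and CXCL2, NFKB2 and TNFAIP3 did not pass. The groups were apart in both batches for 4 genes that were lower (11.9% of all tested genes) and for 1 that was higher (11.9%). In batch B alone, CXCL1, CXCL2 and CXCL3 were called lower. The shares of all tested genes given above are of both batches and not of the fits to 1 batch. In batch A alone only CXCL1 was, while CXCL2 (0.61) and CXCL3 (0.23) had log2 fold changes above 0 and were not called. The call of CXCL3 over both batches was lost in 7 of 17 other settings, with the sign reversed in 1 more. It was also lost in 6 of 12 fits that left out 1 library. In bulk RNA, fewer cells expressing a gene and less RNA per cell cannot be told apart.

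**Figure D1:**
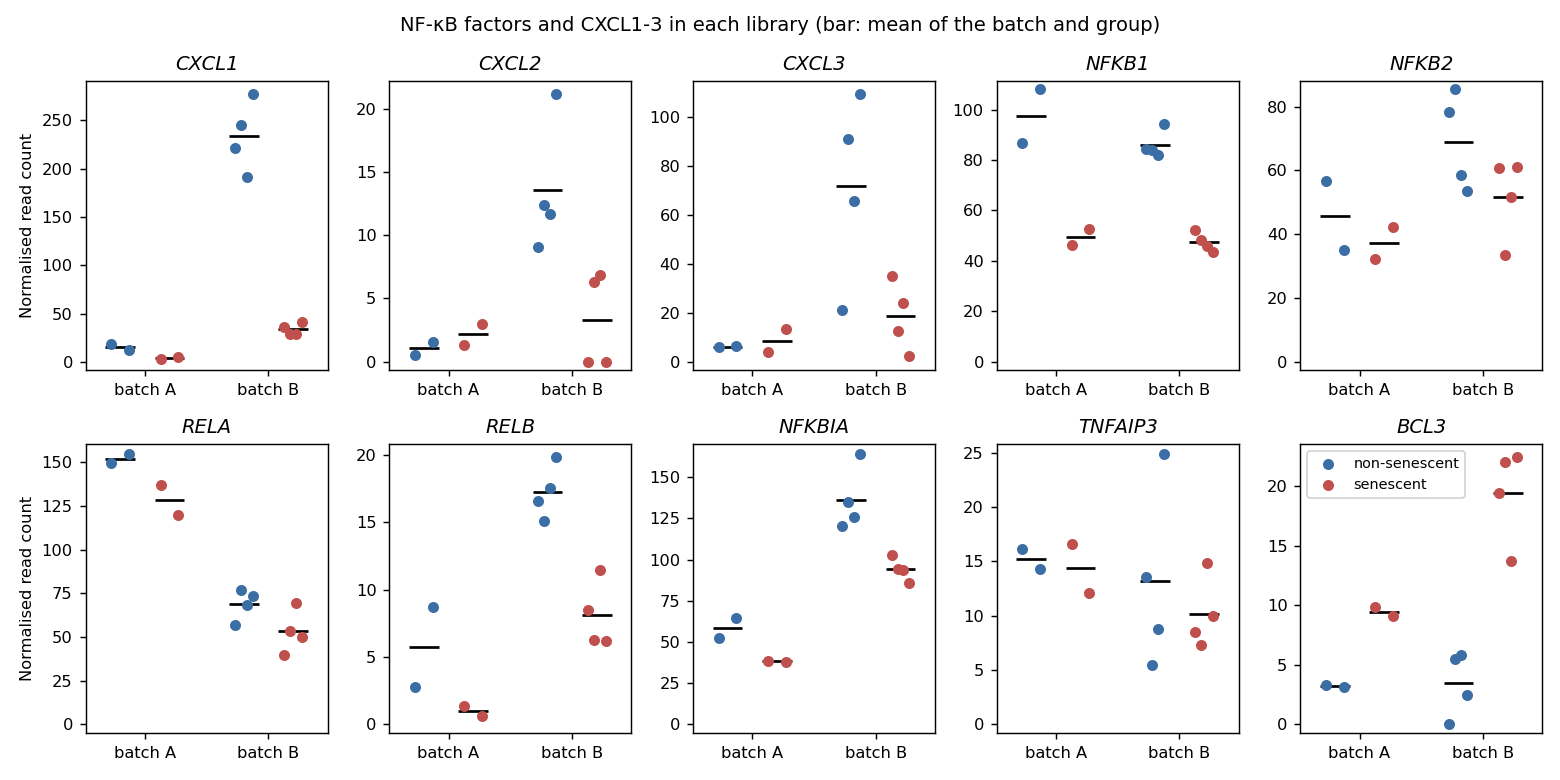
Normalised read counts of the 10 genes in each library, by batch and group (blue, non-senescent; red, senescent; bars, mean of the libraries in that batch and group). The groups were apart in both batches for CXCL1, NFKB1, RELB, NFKBIA and BCL3, and the CXCL genes were many times higher in the non-senescent libraries of batch B than in those of batch A.

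CXCL1 (chr4:73869393-73871308, protein-coding) had the largest decrease of the 10 genes. Its values in non-senescent cells were 18.3 and 12.7 in batch A and 221, 245, 191 and 277 in batch B. In senescent cells they were 3.14 and 5.44 in batch A and 36.4, 28.3, 28.6 and 41.1 in batch B. Every senescent library lay below every non-senescent library of its batch. The log2 fold change was -2.40 (SE 0.23, 95% interval -2.87 to -1.92, adjusted p 2.2e-07), which is 5.27-fold lower, and 126 of the 13847 tested genes (0.910%) had a lower value. Within batches limma gave -1.66 in A (adjusted p 0.0176) and -2.77 in B (adjusted p 1.23e-05).

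The level of CXCL1 depended on the batch as well as on the group. The mean of non-senescent libraries was 15.5 ± 3.98 (SD, n = 2) in A and 234 ± 36.3 (SD, n = 4) in B, a 15.1-fold gap, and 1.66% of tested genes had as large a gap between the batches on the log2 scale. Senescent libraries of batch B (33.6 ± 6.23, SD, n = 4) were therefore still above non-senescent libraries of batch A. In order, non-senescent B, senescent B, non-senescent A and senescent A (4.29 ± 1.62, SD, n = 2) each had ranges apart from the next. CXCL2 and CXCL3 had gaps of 12.6-fold and 11.5-fold between the non-senescent batches, in the same direction, and 3.76% and 2.78% of tested genes had gaps as large. The CXCL2 gap rests on 3 reads in all in the non-senescent libraries of batch A.

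CXCL3 (chr4:74036589-74038807, protein-coding) was called lower too. Non-senescent values were 6.11 and 6.36 in batch A and 21.1, 90.9, 65.8 and 109 in batch B. Senescent values were 4.04 and 13.3 in A and 35.1, 12.6, 24.0 and 2.49 in B. The groups overlapped in both batches. In A, senescent A2 lay above both non-senescent libraries, and in B the lowest non-senescent library (B1) lay below senescent B1 and B3. The log2 fold change was -1.33 (SE 0.57, 95% interval -2.54 to -0.13, adjusted p 0.0764), from 0.23 in batch A (adjusted p 0.769) and -2.11 in batch B (adjusted p 0.0657). The call was lost when any of 6 libraries was left out (non-senescent B2, B3 or B4, or senescent A1, B2 or B4), the lowest change being -0.82 without senescent B4, and by DESeq2 on the recovered reads (-1.21, adjusted p 0.137).

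CXCL2 (chr4:74097040-74099196, protein-coding) was measured by few reads. In reads, its non-senescent libraries held 1 and 2 in batch A and 6, 9, 8 and 17 in batch B, and its senescent libraries held 3 and 5 in A and 0, 6, 6 and 0 in B. A count of 0 allows up to 3 reads, which is 3.64 and 3.74 normalised read counts in those libraries, and the interval covers counting error only. The normalised values of batch B did not overlap (9.03 to 21.1 against 0 to 6.87), and limma on batch B alone called the gene lower (-2.34, adjusted p 0.0418). Batch A had a log2 fold change of 0.61 (adjusted p 0.369), from 3 against 8 reads. Over both batches the value was -1.36 (SE 0.65, 95% interval -2.74 to 0.03), which was not called (adjusted p 0.114). The gene was called lower when any of 4 libraries was left out, with -1.69 without non-senescent A1, -1.70 without senescent A2, -1.55 without senescent B2 and -1.57 without senescent B3 (adjusted p 0.0556 to 0.0979). It was not called without any of the other 8 libraries, and without non-senescent B1, senescent B1 and senescent B4, a choice made after seeing the data, it was -0.29.

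Because the 3 chemokine genes are similar, reads may have been divided among them when transcripts were quantified. Of the words of 31 bases in the last 500 bases of the GENCODE v44 mRNAs, CXCL1 and CXCL2 shared 17.9% and CXCL3 shared 0 with either. The sum over the 3 genes does not depend on that division. It was 22.8 ± 3.07 in non-senescent and 15.1 ± 9.34 in senescent libraries of batch A (SD, n = 2), and 319 ± 72.5 against 55.5 ± 12.7 in batch B (SD, n = 4). The mean sum was thus 1.51-fold lower in A, where senescent A2 (21.7) exceeded non-senescent A2 (20.7), and 5.75-fold lower in B, where the groups did not overlap. The log2 ratio in batch A was -0.59, and it was -1.42 without senescent A2 but -0.071 without senescent A1.

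**Figure D2:**
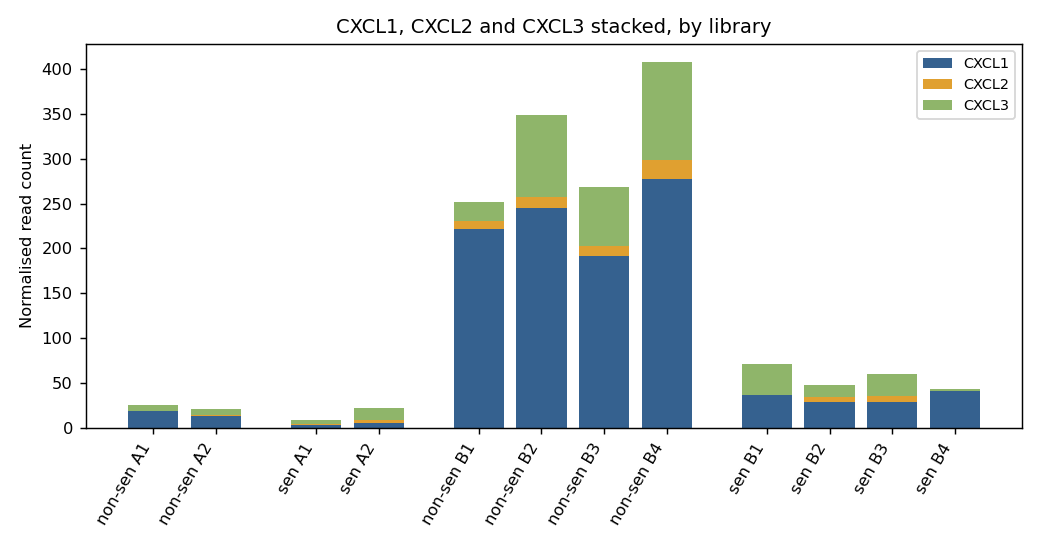
Normalised read counts of CXCL1, CXCL2 and CXCL3 stacked for each library (y axis, normalised read count, not scaled to transcript length; x axis, libraries by batch and group). Sums in non-senescent libraries of batch B were 251 to 408, those in senescent libraries of batch B 43.6 to 71.5, and those of batch A at most 25.0.

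A batch by group interaction term in limma tested whether the response differed between A and B. None of the 10 genes passed an adjusted p of 0.1, against 4.21% of tested genes. The lowest unadjusted p-values among them were those of CXCL1 (-1.11 in B minus A, SE 0.40, p 0.0138, adjusted p 0.183) and CXCL2 (-2.95, SE 1.21, p 0.0271, adjusted p 0.246). In edgeR on the recovered reads none passed an adjusted p of 0.1 either, and the lowest unadjusted p-values were those of CXCL3 (p 0.0278, adjusted p 0.216) and CXCL2 (p 0.0491, adjusted p 0.289). In limma CXCL3 had a difference of -2.34 (SE 1.12, adjusted p 0.337). With a pseudocount of 8 in place of 1, CXCL1 passed (-1.61, SE 0.32, adjusted p 0.00931). A pseudocount of 8 shrinks differences among low values most, and the senescent values of CXCL1 in batch A were 3.14 and 5.44. CXCL1 did not pass with a pseudocount of 0.5 (-1.02, adjusted p 0.238) or in edgeR (-0.95, adjusted p 0.343).

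Immune cells also express these chemokines, and 1 of their markers, PTPRC (CD45), was called lower, although its groups were not apart in both batches. PTPRC fell from 13.5 to 3.26 normalised read counts (log2 fold change -1.58, adjusted p 0.0072), which was -0.34 in A and -2.20 in B. Of the 10 immune markers 3 were tested, and CD68 (0.06) and AIF1 (-0.18) did not pass. Below the filter, mean normalised read counts were higher in senescent cells for LYZ (0.68 to 2.78, from 6 and 29 reads) and CD79A (0.32 to 0.47). They were lower for CD14 (0.82 to 0.48) and ITGAM (0.73 to 0). CSF1R, CD3E and S100A8 had 0 reads in all 12 libraries. The summed level of the list was 6.96 to 11.7 ppm of the reads of a library in non-senescent and 5.49 to 8.64 in senescent libraries. Of 11 fibroblast and endothelial markers 3 were tested and none was called at the adjusted p (log2 fold changes of -0.11 for COL1A1, -0.28 for COL3A1 and -0.25 for PECAM1, the lowest adjusted p being 0.65). PDGFRB and VWF had 0 reads. The summed level of that list was 3.36 to 20.1 ppm in non-senescent and 2.46 to 8.60 in senescent libraries. All samples were of 1 cultured line, and whether any such cells were present, or had a part in the chemokine levels, was not tested.

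NFKB1, which encodes p105, the precursor of the DNA-binding p50 subunit, fell in both batches. Located at chr4:102501330-102617302 on the same chromosome as the CXCL genes, it had 86.7 and 108 normalised read counts in non-senescent cells of batch A and 84.3, 84.0, 81.8 and 94.4 in batch B. Senescent libraries had 46.2 and 52.5 in A and 52.1, 48.3, 45.8 and 43.6 in B. The highest senescent value thus lay below the lowest non-senescent value of either batch. The log2 fold change was -0.89 (SE 0.13, 95% interval -1.16 to -0.61, adjusted p 4.48e-05), or 1.85-fold lower, with -0.96 in A and -0.85 in B. Its levels did not separate the batches, as the ranges of A and B overlapped within each group.

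RELB is the partner of the NFKB2 product p52 in the noncanonical branch of the pathway. The gene (chr19:45001461-45038192) was measured by 66 reads over the non-senescent libraries and 32 over the senescent ones. Normalised values were 2.78 and 8.74 in non-senescent batch A, 16.6, 15.1, 17.5 and 19.9 in non-senescent batch B, 1.35 and 0.604 in senescent batch A, and 8.48, 6.30, 11.4 and 6.23 in senescent batch B. Groups were apart in both batches, although the senescent libraries of A held only 3 reads and 1 read. The log2 fold change was -1.24 (SE 0.34, 95% interval -1.95 to -0.53, adjusted p 0.00743), with -1.65 in A and -1.03 in B. RELB was higher in batch B in both groups, and without the batch term its adjusted p was 0.203.

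RELA and NFKB2 changed less than the fold limit. RELA (chr11:65653599-65663090), the p65 subunit that carries the transactivation domain of the canonical p50-p65 pair, had 149.5 and 155 normalised read counts in non-senescent and 137 and 120 in senescent cells of batch A. In batch B the ranges were 57.2 to 77.1 and 40.0 to 69.8 and overlapped. Its log2 fold change of -0.34 (SE 0.15, 95% interval -0.65 to -0.03) had an adjusted p of 0.0781. RELA was higher in batch A than in B, 2.20-fold in non-senescent and 2.41-fold in senescent means, and all libraries of A lay above all of B. NFKB2 (chr10:102394110-102402524), the precursor of p52, overlapped between groups in both batches, at 35.0 to 85.4 in non-senescent and 32.3 to 61.0 in senescent libraries. Its value was -0.37 (SE 0.20, 95% interval -0.78 to 0.05, adjusted p 0.158), so that a decrease past the fold limit was within the interval.

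BCL3 was the single member that rose. The protein binds p50 and p52 pairs in the nucleus and can turn them from repressors into activators. The gene (chr19:44747705-44760044) had 3.33 and 3.18 normalised read counts in non-senescent libraries of batch A and 0, 5.51, 5.84 and 2.49 in batch B. In senescent libraries it had 9.88 and 9.06 in A and 19.4, 22.0, 13.7 and 22.4 in B. Every senescent library lay above every non-senescent library, from 20 reads in all in non-senescent and 104 in senescent cells. The log2 fold change was 2.10 (SE 0.45, 95% interval 1.15 to 3.06, adjusted p 0.00131), or 4.30-fold higher, and 115 tested genes (0.831%) had a higher value. Within batches it was 1.30 in A (adjusted p 0.0214) and 2.51 in B (adjusted p 0.0108), and the call held without any single library, at 1.68 without non-senescent B1, which had 0 reads.

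The inhibitors of the pathway, NFKBIA and TNFAIP3, are themselves induced by NF-κB. NFKBIA (chr14:35401079-35404749) had 52.2 and 64.4 normalised read counts in non-senescent and 38.6 and 38.0 in senescent cells of batch A. In batch B it had 120.5, 135, 126 and 164 in non-senescent and 103, 94.5, 93.9 and 85.9 in senescent cells. The groups were apart in both batches. The log2 fold change of -0.54 (SE 0.13, 95% interval -0.81 to -0.27, adjusted p 0.00252) was below the fold limit, and was past it when every library was scaled to the same total (-0.65). TNFAIP3 (chr6:137867214-137883314) had 5.51 to 24.8 in non-senescent and 7.35 to 16.6 in senescent libraries, with overlap in both batches. Its value was -0.16 (SE 0.33, adjusted p 0.736), and the 95% interval of -0.86 to 0.53 left changes past the fold limit possible on the lower side only.

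**Figure D3:**
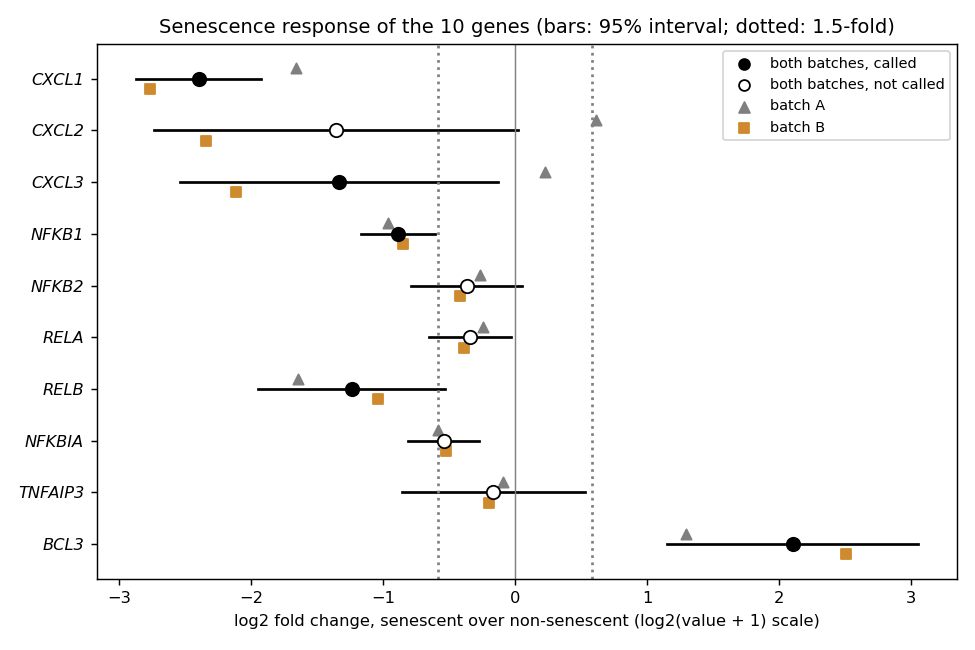
Log2 fold change of each of the 10 genes, senescent over non-senescent, on the log2(value + 1) scale (circles, both batches, filled where called; bars, 95% interval; triangles, batch A; squares, batch B; dotted lines, 1.5-fold). The CXCL1, CXCL2 and CXCL3 squares lie left of their triangles, while those of NFKB1, NFKB2, RELA, NFKBIA and TNFAIP3 lie close to theirs.

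The other genes of the pathway did not share a direction. Over 6 lists of pathway genes without the 10 genes above, 103 of 181 genes were tested, 10 were called higher and 15 lower. That is 24.3% called, beside 23.4% of all tested genes, and their median log2 fold change was 0.03. The IKK kinases and adaptors had 3 higher and 5 lower of 37 tested. The subunits of the IKK complex and NIK did not pass, with log2 fold changes of 0.14 for IKBKB, 0.01 for CHUK, -0.10 for the scaffold IKBKG and 0.04 for MAP3K14 (NIK), which starts the noncanonical branch, each with an adjusted p of at least 0.527. TRAF3, which keeps NIK low, rose from 63.3 to 152 normalised read counts (log2 fold change 1.40, adjusted p 1.74e-06, 1.03 in A and 1.59 in B). TRAF6 (0.72) and TOLLIP (0.59) were also higher, but TOLLIP lay at the fold limit (0.585 on the log2 scale), and its call was lost in 6 of 17 other settings and in 2 of 12 fits that left out 1 library. TRAF2, an adaptor of TNF receptors, fell by 0.81 on the log2 scale, TICAM1 by 0.87, ECSIT by 0.76, IKBKE, an IKK-related kinase, by 0.69 and BCL10 by 0.60. The call of IKBKE was lost in 3 of the other settings and in 1 of the fits without a library. The receptor-associated kinase IRAK1 passed the adjusted p but not the fold limit (-0.53, adjusted p 0.000601).

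Among deubiquitinases and other brakes on the pathway, 4 were higher and 2 lower of 14 tested. CYLD, which removes the ubiquitin chains that IKK activation needs, rose from 140 to 232 normalised read counts (0.80, adjusted p 2.33e-05). USP15 (0.89), TNIP1 (0.71), a partner of A20, and N4BP1 (0.67) were higher too. ZC3H12A, an RNase that degrades cytokine mRNAs, fell from 43.8 to 20.02 (-1.26, adjusted p 0.00978), and OTULIN, which removes linear ubiquitin chains, fell from 85.6 to 47.6 (-0.82, adjusted p 0.0014). Of the remaining subunits and inhibitors 1 of 8 tested was called, NFKBID, a nuclear IκB protein (-0.78, adjusted p 0.00259). REL (-0.38, adjusted p 0.0224) and NFKBIB (-0.27, adjusted p 0.0959) were below the fold limit, and NFKBIE (0.09) and NFKBIZ (0.33) did not pass.

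Receptors and ligands were mostly not tested or not called, with 1 higher and 2 lower of 18 tested. TNFSF12 (TWEAK), a ligand that can signal to the noncanonical branch, rose from 34.9 to 157 normalised read counts (2.46, adjusted p 0.00108). LTB, which encodes lymphotoxin beta, fell from 30.5 to 1.87 (-2.78, adjusted p 1.74e-04), which was -0.80 in A and -3.76 in B. TNFRSF13C, the BAFF receptor, fell from 25.2 to 4.24 (-2.43, adjusted p 8.28e-05). LTBR, the lymphotoxin receptor, had 0.45 (adjusted p 0.141) and IL1R1 -0.22 (adjusted p 0.739). The inducing cytokines were at or near 0. IL1A had no reads in any library, IL1B had 1 read, TNF had 10 reads over the 6 non-senescent libraries and 4 over the 6 senescent ones, and the TNF receptor TNFRSF1A had 5 and 8.

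Of 44 other NF-κB target genes, 22 were tested, 3 were higher and 2 lower, with a median of -0.0045. SAT1, which acetylates polyamines, rose from 357 to 937 normalised read counts (1.38, adjusted p 1.64e-07), and F3, tissue factor, had 0.82 (adjusted p 0.0227), which was -0.25 in A and 1.35 in B. SDC4, a heparan sulfate proteoglycan, fell from 34.4 to 12.5 (-1.36, adjusted p 0.00111), and CD44 fell by 0.74 on the log2 scale. SOD2, the mitochondrial superoxide dismutase, had -0.23 (adjusted p 0.0357), and BIRC3 (0.05) and TRAF1 (0.18) did not pass. Of the 44 genes 22 did not reach the filter in mean level. Non-senescent libraries together held 6 reads of IL6 and senescent libraries 0, and CXCL8 had 4 and 6, CCL2 had 1 and 3, CCL20 had 2 and 1, and ICAM1 had 2 and 0. The chemokine gene CCL5, by contrast, had 2724 and 3313 reads with a log2 fold change of 0.03, and the transcription factor gene IRF1 had 902 and 1327 reads with 0.23, and neither was called.

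**Figure D4:**
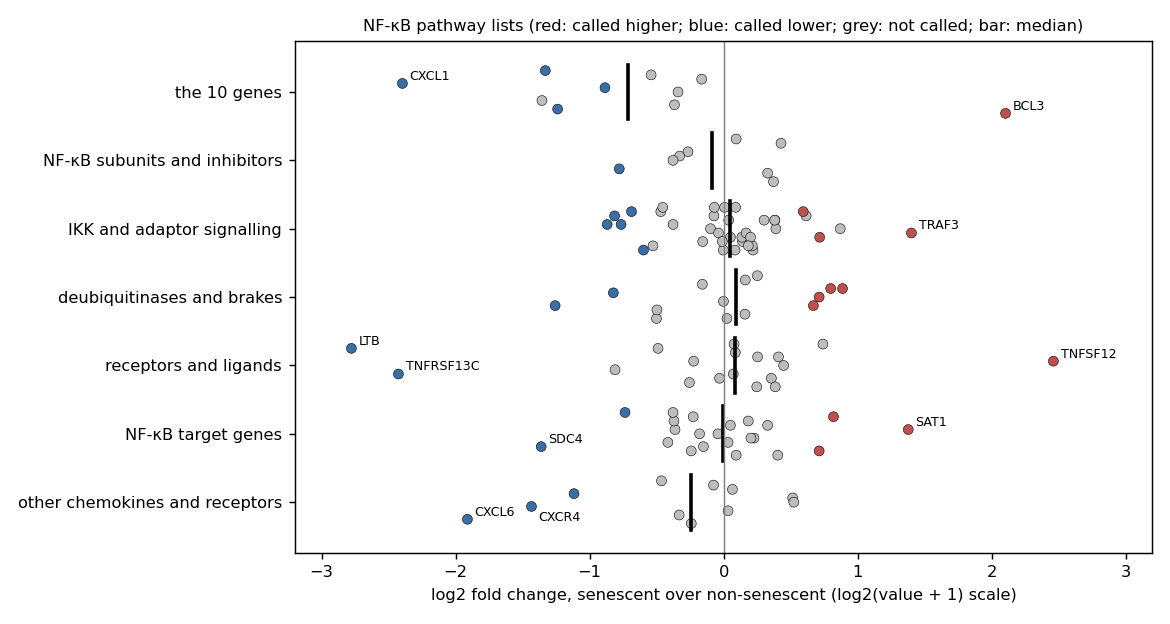
Log2 fold changes of the tested genes of each NF-κB list (points, 1 gene each; red, called higher; blue, called lower; grey, not called; black bar, median of the list), senescent over non-senescent. The median of the 10 genes was -0.71, and the medians of the other 6 lists lay between -0.24 and 0.09.

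Most other chemokines and their receptors were below the filter, as 11 of 49 were tested. The 3 called genes were all lower: CXCL6 (from 10.5 to 1.30 normalised read counts, -1.91, adjusted p 0.00797), the CXCL12 receptor CXCR4 (-1.43, adjusted p 0.0194) and CCL28 (-1.12, adjusted p 0.00522). CXCR2, the receptor of CXCL1, CXCL2 and CXCL3, had 39.6 in non-senescent and 49.5 in senescent libraries (0.07, adjusted p 0.844). CXCL6 lies 20328 bases before CXCL1, in a cluster of related chemokine genes on chromosome 4, where CXCL3 and CXCL2 follow CXCL1 after 165280 bases and a further 58232 bases. CXCL6 had a log2 fold change of -0.28 in A against -2.73 in B (interaction -2.45, SE 0.92, adjusted p 0.201).

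Neighbours of the cluster that are not chemokines had other values. On the near side RASSF6 had a log2 fold change of -0.01 and ANKRD17 of 0.37, and beyond CXCL2 MTHFD2L had -0.23 and EREG, an EGF receptor ligand, 0.11, none of which was called. ANKRD17 passed the adjusted p (0.00915) but not the fold limit, and its groups were apart in both batches. PARM1, farther out, rose from 71.4 to 140 normalised read counts (1.08, adjusted p 5.82e-05). Of the other CXC genes in this stretch, CXCL8, CXCL5 and PF4 had at most 10 reads per group and PF4V1 and PPBP had 0 reads, and none of these was tested. Of the 17 genes of this stretch other than the 3 chemokines, 7 were tested, 1 was higher and 1 lower.

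**Figure D5:**
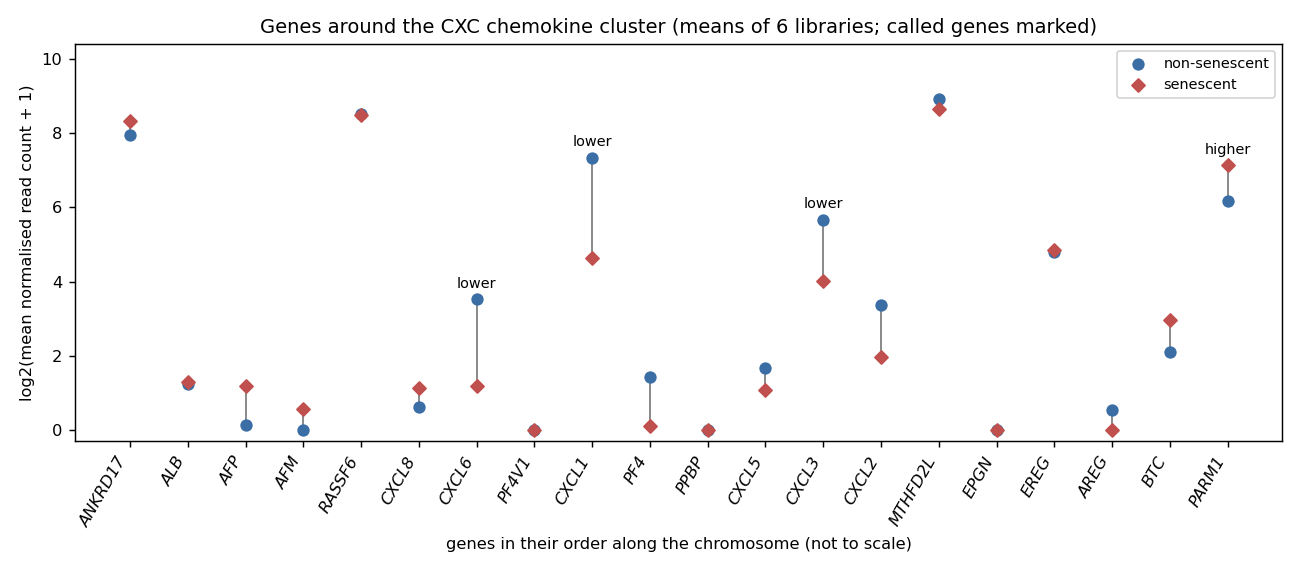
Mean normalised read counts of genes in their order along chromosome 4 around CXCL1, CXCL2 and CXCL3 (y axis, log2(mean + 1); blue circles, 6 non-senescent libraries; red diamonds, 6 senescent libraries). CXCL6, CXCL1 and CXCL3 were called lower and PARM1 higher. Counts are not per length, so levels are to be compared between groups and not between genes.

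For each called member, the genes with the most similar profile were sought among genes with a mean of at least 20. Similarity was the root mean square difference over the 12 libraries of log2 values centred within each batch. Nearest to CXCL1 were MCM5 (0.259), a subunit of the replication helicase, GINS3 (0.265), another replication factor, and MXD3 (0.268). Because the group difference enters this measure, the log2 fold change of MCM5 (-2.27) is near that of CXCL1 by selection. Nearest to NFKB1 were NDUFA6 (0.099), MSMO1 (0.102) and BANF1 (0.106), and nearest to RELB were MSMO1 (0.347), TRIM59 (0.350) and MTHFD1 (0.362). CXCL3 had no close match, as SLCO4A1 (0.680), OR2L2 (0.721) and MAP10 (0.767) came first. BCL3 was nearest to MYO7A (0.270), ENTPD3 (0.384) and ABCC6P2 (0.479). Many genes change with the group in these libraries, so that a near profile is a description of the 12 values.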

How the data were processed

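CEL-seq2 libraries (12) came from 6 senescent and 6 non-senescent samples of EndoC-βH3. Groups, batches (the letter A or B in the titles) and replicate names came from the labels. Per the methods and the submitters' processing notes, trimming used Cutadapt, quantification used Salmon 0.13.1 with GRCh38, and DESeq2, with a correction for batch, served for differential expression. How molecular identifiers were treated, and with which transcript annotation, is not given in the sources used here. Reads may therefore not be independent molecules, and the floor of 3 reads covers counting error only. The values the authors deposited are a signal, read counts divided by 1 size factor per library. Non-zero values were whole multiples of the value of 1 read in 100% of 196021 cases (tolerance 0.01), and those reads were recovered. The deposited columns of the authors' own comparison (mean, log2 fold change, its error, statistic, p-value and adjusted p-value) were not used.

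Groups were compared with limma 3.58.1 (R 4.3.3), on log2(value + 1) with intensity trend, batch and group, for 13847 genes with a mean of at least 5. Calls needed a Benjamini-Hochberg adjusted p under 0.1 over all tested genes and a fold change over 1.5. Fold changes on this scale understate those of low genes. The interaction of batch and group was tested at an adjusted p under 0.1. The members and all gene lists were chosen with earlier results of these data known, so their counts are descriptions. Genes named besides the members were a panel of pathway genes, up to 4 called genes with the largest rise and 4 with the largest fall of each list (mean of at least 20), the 3 nearest profiles of each called member, and TERT, CDKN1A and MKI67. LTB, TNFRSF13C, BCL10, CD44, PTPRC and the other markers and neighbours named fall outside this rule or were chosen after their values were seen.

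Alternatives changed the pseudocount, filter, scaling, batch term, trend, weights, limits, samples and tool (edgeR 4.0.16 and DESeq2 1.42.0 on the recovered reads). The procedure was also run on simulated counts, and the outcome of that run is not given here. Positions and mRNAs are from GENCODE v44 and promoters from RefSeq (GRCh38.p14), all matched by symbol.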

Additional observations from a re-analysis of the deposited data

Results flagged for a closer look

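For none of the 10 genes did 1 library stand apart from the rest of its group and batch by Dixon's criterion, which was applied to the groups of 4 or more libraries, nor did the response differ between batches at an adjusted p of 0.1 in the main limma test. The response of 11 other named genes differed between batches, given here as the log2 fold change in batch B minus that in batch A. Of the pathway genes these were NFKBIB (0.79, adjusted p 0.0207), SAT1 (0.72, adjusted p 0.0805) and F3 (1.60, adjusted p 0.0628). Of the markers and label checks they were PCSK1 (0.74, adjusted p 0.0533), UCN3 (-0.74, adjusted p 0.0917), GCG (1.59, adjusted p 6.81e-06), SST (0.89, adjusted p 0.000747), CDKN1A (2.60, adjusted p 0.00191) and MKI67 (0.94, adjusted p 0.022). Of the nearest profiles they were MCM5 (-0.82, adjusted p 0.0217) and ABCC6P2 (1.62, adjusted p 0.046). NFKBIB, which encodes IκBβ, had -0.79 in A against -0.0029 in B. Among all tested genes 4.21% differed between batches, so such differences are frequent in this series.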

How the results depend on the processing

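CXCL1, NFKB1 and BCL3 kept direction and call in every alternative that tested them, with log2 fold changes from -2.77 to -1.66, from -0.99 to -0.80 and from 1.06 to 2.51 outside the fits that left out 1 library. A filter at a mean of 20 removed BCL3, so that 0 members were called higher, and without the batch term the calls of CXCL3 and RELB were lost. CXCL3 was -1.33 with an adjusted p of 0.157 without the filter, 0.344 without the batch term, 0.14 without the trend and 0.0764 against a limit of 0.05, and was -0.85 with array weights, -1.21 by DESeq2 and 0.23 in batch A alone. RELB was -1.24 without the batch term (adjusted p 0.203). CXCL2 passed at -0.59 (pseudocount 8), -1.43 (same total) and -2.34 (batch B alone), was 0.61 in batch A alone, and passed in 4 of 12 fits without 1 library. NFKBIA passed at -0.65 (same total), at -0.59 in batch A alone and, with no fold limit, at -0.54. The cause of these changes was not tested.

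Leaving out 1 library at a time, CXCL2 ranged from -1.70 to -0.94, CXCL3 from -1.71 to -0.82, TNFAIP3 from -0.36 to 0.063, BIRC3 from -0.15 to 0.25, CHUK from -0.027 to 0.045, CXCR2 from -0.056 to 0.18, IKBKG from -0.19 to 0.076, MAP3K14 from -0.023 to 0.11 and NFKBIE from -0.046 to 0.25. The summed chemokines of batch A ranged from -1.42 to -0.071 on the log2 scale, and genes that differed between batches from 169 to 743, with 169 to 261 when any library of batch A was left out. Genes called higher were 1037 without the batch term, and with an adjusted p under 0.05 and no fold limit 2699 were higher and 2613 lower, with 23 pathway genes lower. With the interaction, 289 genes differed without the trend, and 1 member, CXCL1, with pseudocount 8. Genes near 0 changed sign. Scaled to the same total, which moved the median of all genes to -0.09 and calls from 49.6% to 37.0% higher, NFKBIE was -0.010, CHUK -0.099, MAP3K14 -0.067, BIRC3 -0.050 and CXCR2 -0.035. CHUK was -0.00013 with upper quartile scaling. Batch A alone gave 0.057 for IKBKG, -0.17 for MAP3K14, -0.099 for LTBR, -0.64 for BIRC3, -0.15 for TRAF1, -0.51 for CXCR2, -0.25 for F3 and 0.41 for MAP10, and batch B alone gave -0.16 for NFKBIE and -0.037 for CHUK. Array weights gave -0.022 for MAP3K14, -0.082 for BIRC3 and -0.081 for CXCR2. Without non-senescent B1, senescent B1 and senescent B4, a set chosen after seeing the data, IKBKG was 0.013 and TRAF1 -0.059.

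Same-numbered libraries of the 2 groups deviated together by a correlation of -0.051 to 0.016, and no library correlated best with its own number. With the replicate block CXCL3 was -1.33 (adjusted p 0.123) and was not called, and no other member changed its call.

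CXCL2, RELB and BCL3 rest on 20 to 104 reads per group, and a library with 0 reads allows up to 3. Batch A has 2 libraries per group, which limits what its values can show.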
